A study of Mus musculus with 6 samples.

Results

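The 9 genes described here, Cntfr, Lifr, Il6st, Jak1, Jak2, Stat3, Socs2, Socs3 and Socs7, encode receptor chains, kinases, the transcription factor and inhibitors of gp130 cytokine signaling. They were chosen by symbol, with earlier results of these data known but with no threshold on their measured values. They come from 17027 gene symbols listed in an RNA-seq table of mouse retinal ganglion cells (RGCs), the neurons whose axons form the optic nerve. All 9 passed the minimum level for testing, a mean of at least 1 FPKM over the libraries, as did 14390 genes in all. FPKM are fragments scaled to transcript length and to the mapped fragments of a library, so levels of different genes are set side by side per length. Gene levels here are sums of the FPKM of each gene's isoforms.

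The samples were RGCs of WT mice of strain C57/6NCrl at embryonic day 18 (E18), at postnatal day 5 (P5) and as adults of 8 weeks (Adult). Each age had 2 libraries, which makes 6. No agent, transgene or injury was named for any age. Cells were panned on Thy1, a surface antigen of RGCs, after macrophages had been removed, and the sample protocol (but not the series design) also names removal of amacrine cells. No label ties the libraries of an age to separate animals, so the p-values below reflect how far these libraries spread, which may be technical. Both P5 columns carry the same header, so neither can be tied to a replicate, and their libraries are called a and b.

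gp130, the product of Il6st, is the signaling chain shared by the receptors for interleukin-6, LIF, CNTF and related cytokines. Cytokine binding brings receptor chains together, Jak kinases bound to them phosphorylate the chains and then Stat3, and Stat3 dimers enter the nucleus and activate target genes, among them Socs3, whose product binds gp130 and the Jak and shuts the signal off. In the injured mouse optic nerve, CNTF is a widely used stimulus of RGC axon growth, and deletion of Socs3 in RGCs is known to increase regrowth.

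The label RGC was set against markers of RGCs and of other retinal cells, as drawn in the plot of marker lists. The summed level of the RGC list, of which 15 of 16 genes were listed, was 3466 and 3930 FPKM in E18 cells, 4104 and 3713 FPKM in P5 cells and 574 and 361 FPKM in Adult cells. Rod markers summed to at most 2.53 FPKM in each E18 and P5 library and to 5303 and 636 FPKM in Adult, so the Adult libraries also differed from each other. Müller glia markers summed to between 187 and 229 FPKM at E18 and P5 and to 1721 and 2010 FPKM in Adult, and amacrine markers to between 108 and 182 FPKM at E18 and P5 and to 1061 and 1446 FPKM in Adult. The 4 of 8 endothelial and pericyte markers that were listed summed to at most 9.62 FPKM before adulthood and to 32.2 and 44.2 FPKM in Adult; the 1 listed microglia marker of 11, C1qa, stayed at or below 1.25 FPKM. Progenitor and cell cycle markers summed to 16.9 and 21.9 FPKM at P5, against 153 and 31 FPKM at E18, where replicate 1 stood apart, and to 93.3 and 78.5 FPKM in Adult. All 12 tested genes of that list had a log2 change below 0 in P5 against E18 (median -0.95), and 1 of them, Mcm7, passed the test. Comparisons with Adult thus set side by side libraries that differ in the RGC, rod, Müller glia, amacrine, and endothelial and pericyte sums. The Adult progenitor sums lay above those of P5 but between those of the E18 libraries. Neurod4 alone had 49.2 and 38.3 FPKM of the Adult sums. The cell cycle genes Mki67 and Top2a, at most 1.40 FPKM at P5, were at most 4.00e-04 FPKM in Adult. In Adult against P5, 7 of 12 tested genes of the list had a change above 0 and 5 below 0. Hes1, Neurod4 and Notch1 passed as higher and none as lower. P5 and E18 libraries differed in the progenitor list as given. In the RGC list, Thy1 (means of 380.3 FPKM at P5 and 201 FPKM at E18) and Nefh passed the test as higher at P5 and Isl1 as lower, while 12 of 15 genes did not pass. The Müller glia marker Clu and the bipolar cell marker Gng13 passed as higher. The part of these differences in the results was not tested. In such bulk samples, fewer cells of a type and less RNA per cell cannot be told apart.

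**Figure D1:**
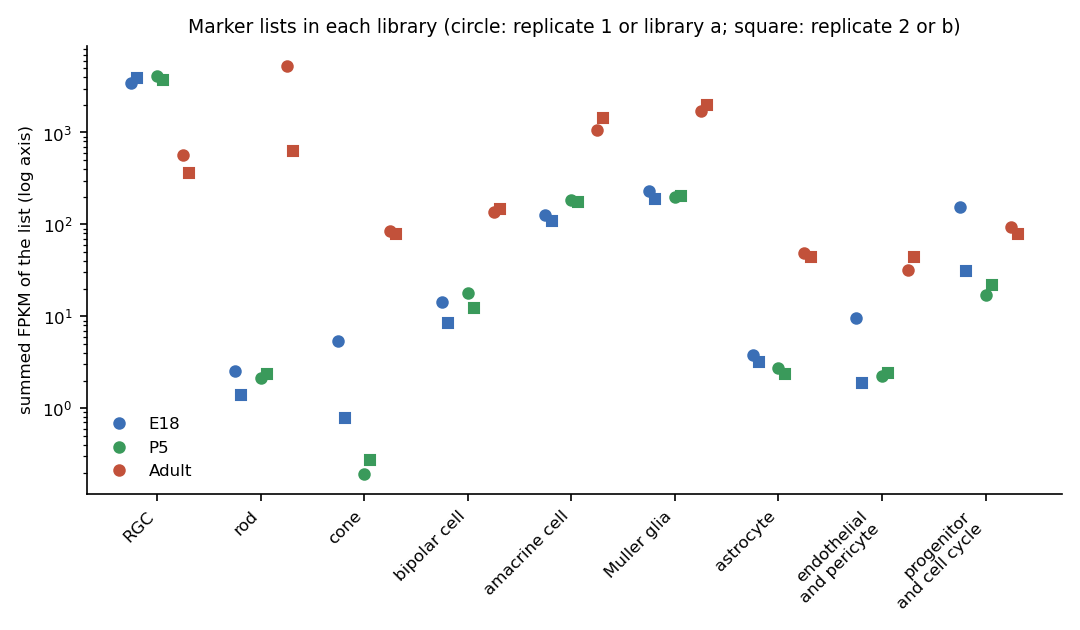
Summed FPKM of each marker list (log axis) in each library at E18, P5 and Adult; circles are replicate 1 or library a, squares replicate 2 or library b. RGC markers were at 574 and 361 FPKM in Adult and at 3466 FPKM or more in the E18 and P5 libraries, while the rod, cone, bipolar, amacrine, Müller, astrocyte and endothelial lists were highest in Adult.

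Between E18 and P5, Socs3 fell and Cntfr fell, while Socs2 and Jak1 rose. These changes passed the test described next, but each lost its call without at least 1 of the libraries, as given with the gene. Changes were tested with limma on log2(FPKM + 1) over all 14390 genes, with Benjamini-Hochberg adjustment and a threshold of 0.05 on the adjusted p, and log2 changes are on that scale, which understates changes of low genes. In P5 against E18, 2 of 9 members were higher, where 5.52% of all genes tested were, and 2 were lower, where 4.95% of all genes were. In Adult against P5, Cntfr, Lifr and Socs7 were higher, 3 of 9 against 26.2% of all genes, and Socs2 and Jak1 were lower, 2 of 9 against 33.7% of all genes. In Adult against E18, Socs7 alone was higher, 1 of 9 against 25.3% of all genes, and Socs2, Socs3 and Jak2 were lower, 3 of 9 against 34.4% of all genes. The median log2 change of the 9 was -0.21 in P5 against E18, -0.081 in Adult against P5 and -0.20 in Adult against E18, beside medians of -0.032, -0.072 and -0.11 over all genes in the same order. The comparisons share libraries, so they are not independent of each other. Rescaling each library to TPM moved the median of all genes to -0.76 in Adult against P5 and -0.68 in Adult against E18, and calls that this ended are named with the gene. Under TPM the split of members was 3 higher and 2 lower in P5 against E18, 1 higher and 5 lower in Adult against P5, and 0 higher and 5 lower in Adult against E18; quantile normalization gave 2 higher and 2 lower in the last of these.

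**Figure D2:**
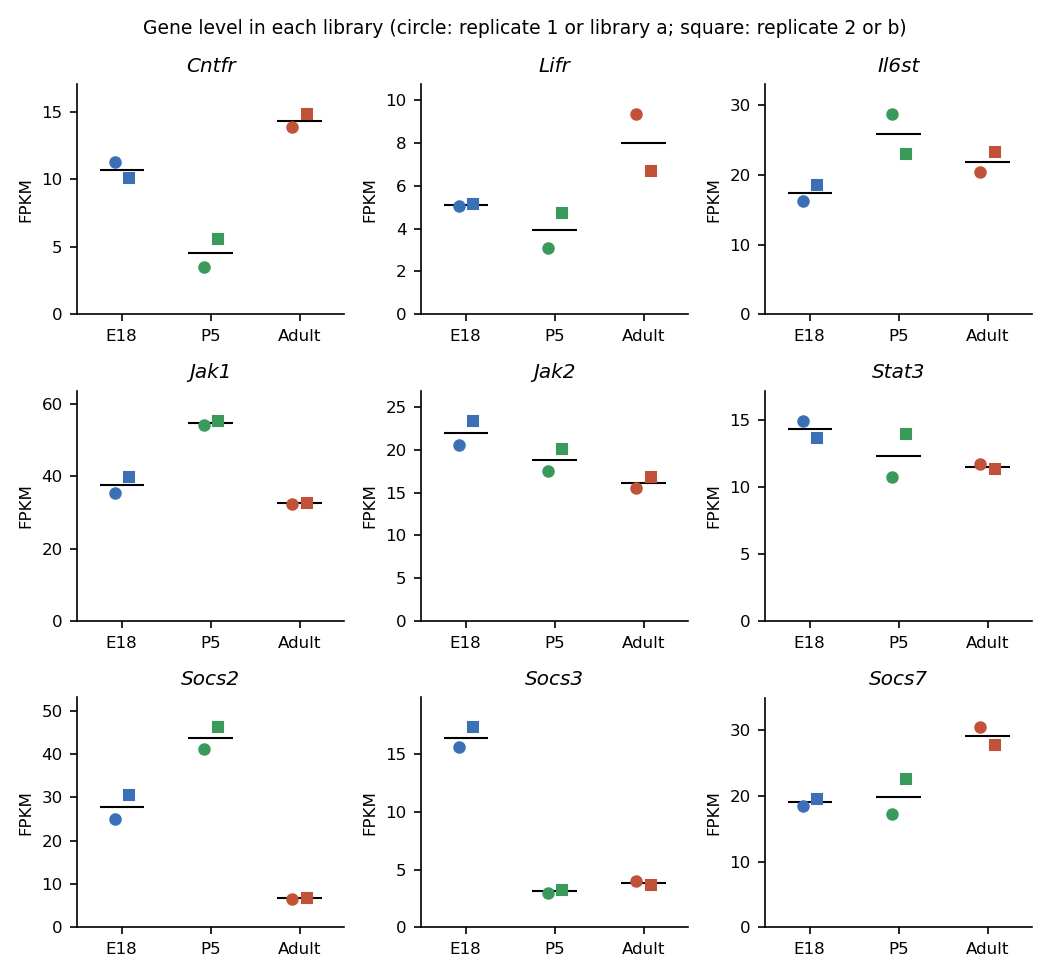
Level in FPKM (vertical axes, each starting at 0) of the 9 genes in each library at E18, P5 and Adult; bars are the mean of 2 libraries, circles replicate 1 or library a, squares replicate 2 or library b. Socs2 was highest at P5 and lowest in Adult, Socs3 was highest at E18, and Cntfr was lowest at P5.

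Jak1 was the highest of the 9 in every age, with means of 37.7 FPKM at E18, 54.7 FPKM at P5 and 32.5 FPKM in Adult. At E18 it was followed by Socs2, Jak2, Socs7, Il6st, Socs3, Stat3, Cntfr and Lifr, and the libraries of Socs7 and Il6st, and of Il6st and Socs3, overlapped. At P5 the order after Jak1 was Socs2, Il6st, Socs7, Jak2, Stat3, Cntfr, Lifr and Socs3, with overlap between Socs7 and Jak2, between Cntfr and Lifr and between Lifr and Socs3. In Adult it was Socs7, Il6st, Jak2, Cntfr, Stat3, Lifr, Socs2 and Socs3, and Lifr and Socs2 overlapped. Socs2 thus stood second of the 9 before adulthood and eighth in Adult.

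**Figure D3:**
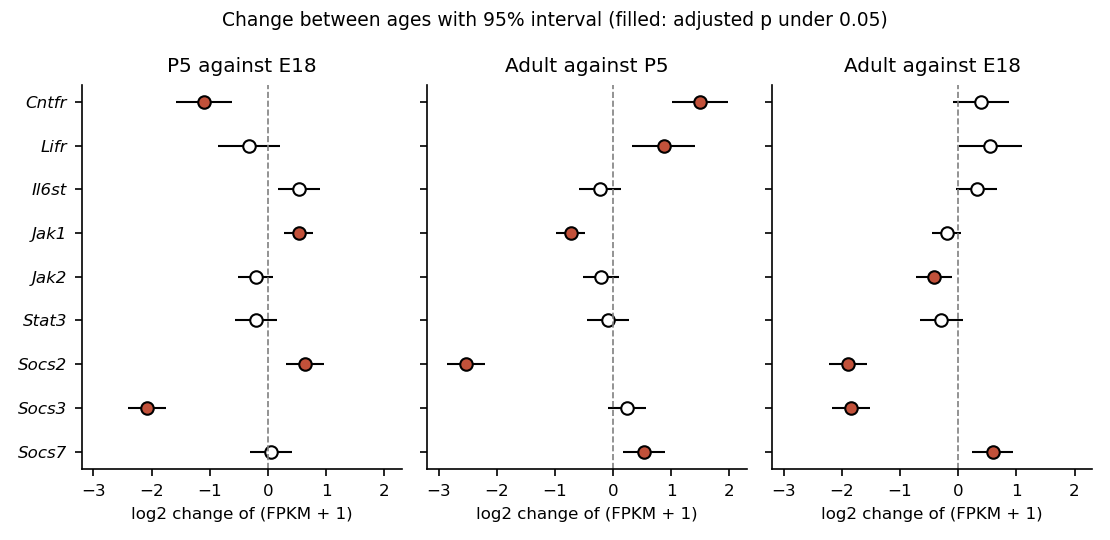
Log2 change of (FPKM + 1), later minus earlier age, with its 95% interval for each of the 9 genes for each pair of ages (panels); filled points have an adjusted p under 0.05 (limma). The widest falls were Socs2 in Adult against P5 (-2.53) and Socs3 in P5 against E18 (-2.08); the Adult rises of Socs7 (0.53 and 0.59) turned to -0.19 and -0.006 under TPM, and that of Lifr against P5 was 0.25 under TPM.

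Among the receptor chains, Cntfr, which encodes the CNTF-binding subunit anchored to the membrane (GRCm38, chr4:41657498-41697089, minus strand), dipped at P5. Its level was 11.3 and 10.1 FPKM in E18 cells, 3.52 and 5.60 FPKM in P5 cells and 13.9 and 14.8 FPKM in Adult cells. Both P5 libraries lay below those of the other ages, and no ages overlapped. Cntfr averaged 4.56 ± 1.47 FPKM at P5 and 10.7 ± 0.827 FPKM at E18 (SD, n = 2 each), a log2 change of -1.10 (SE 0.197, limma adjusted p = 0.0262). Leaving out P5 library a (adjusted p = 0.0891), E18 replicate 1 (0.209) or 2 (0.128), or Adult replicate 1 (0.0669) or 2 (0.0665) ended that call, with the change between -1.17 and -0.82. In Adult, Cntfr was 3.15-fold higher than at P5 (log2 change 1.49, SE 0.197, limma adjusted p = 0.00113), a call kept under each of the 15 settings run. Adult exceeded E18 by 0.39 on the log2 scale (95% interval -0.086 to 0.87, limma adjusted p = 0.13), a change that turned to -0.19 under TPM and passed the test without P5 library a (adjusted p = 0.0342) or b (0.035).

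Cntfr-203, a variant of it, and Cntfr-204 were listed, and Cntfr-203 and Cntfr-204 carry the same coding span of 1116 bases from different starts. The split between them was unstable between replicates: Cntfr-203 was listed at 4.98 and 8.81 FPKM in E18 cells, 2.07 and 5.22e-04 FPKM in P5 cells and 12.8 and 13.6 FPKM in Adult cells. Cntfr-204 had 5.70 and 0.674 FPKM in E18 cells, 1.28 and 5.39 FPKM in P5 cells and 0.00189 and 0.655 FPKM in Adult cells. The gene sum above was therefore steadier than either form before adulthood, and in Adult nearly all of it was assigned to Cntfr-203.

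Lifr, the LIF receptor chain that pairs with gp130 (chr15:7090614-7197489, plus strand), had the lowest mean of the 9 at E18. It was at 5.03 and 5.12 FPKM in E18 cells, 3.11 and 4.73 FPKM in P5 cells and 9.31 and 6.66 FPKM in Adult cells. Both Adult libraries lay above those of the other ages, but they differed from each other. Adult averaged 7.98 ± 1.87 FPKM and P5 3.92 ± 1.14 FPKM (SD, n = 2 each), 2.03-fold higher in Adult (log2 change 0.87, SE 0.222, limma adjusted p = 0.0152). The call ended under TPM (0.25, adjusted p = 0.407), when P5 library a was left out (0.63, adjusted p = 0.0751) and when Adult replicate 1 was (0.66, adjusted p = 0.0908). Relative to the median of all genes, Lifr in Adult against P5 was 1.01 under TPM and 0.94 as deposited. P5 against E18 gave -0.32 (limma adjusted p = 0.377) and Adult against E18 gave 0.55 (limma adjusted p = 0.0726).

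The forms of Lifr differed between ages more than the gene sum. Lifr-201, annotated from a start at base 7129559, had 2.14 and 2.52 FPKM in E18 cells, 1.01 and 2.61 FPKM in P5 cells and 6.64 and 5.13 FPKM in Adult cells. Lifr-203, whose annotated start at base 7154353 lies further into the gene, had 2.87 and 1.19 FPKM in E18 cells, 0.724 and 1.52 FPKM in P5 cells and 0.00541 and 0.16 FPKM in Adult cells. Both carry the same coding span of 3276 bases. Lifr-201 was higher in Adult than at P5 (log2 change 1.35, SE 0.312, limma over isoforms, adjusted p = 0.0174) and than at E18 (1.04, adjusted p = 0.0387). A pseudocount of 0.1 FPKM ended the call against E18 (1.29, limma adjusted p = 0.0713). Both calls of Lifr-201 ended under TPM (0.87 and 0.60, adjusted p = 0.102 and 0.225) and without Adult replicate 1 (1.19 and 0.88, adjusted p = 0.105 and 0.178) or Adult replicate 2 (1.5 and 1.20, adjusted p = 0.0613 and 0.0978), the call against E18 also without E18 replicate 1 (0.96, adjusted p = 0.173) or E18 replicate 2 (1.13, adjusted p = 0.13). Lifr-203 was lower in Adult than at E18 (-1.43, SE 0.357, limma adjusted p = 0.0218), a call lost without E18 replicate 1 (-1.02, adjusted p = 0.103), Adult replicate 1 (-1.33, 0.0935) or Adult replicate 2 (-1.53, 0.0678). Adult against P5 gave -0.95 for it (limma adjusted p = 0.0777), with calls under TPM (-1.54, adjusted p = 0.0314) and with a pseudocount of 0.1 FPKM (-2.80, adjusted p = 0.0327). The listed length of Lifr-201, 9889 bases, differs from its 4143 bases in GENCODE M21, and FPKM are divided by length, so its level rests on the longer model. Of the 250 bases before a RefSeq start of Lifr, 1 stretch is shown because that start is the one nearest to Lifr-201 and Lifr-205 (RefSeq, GRCm38.p6, chr15:7129322-7129571, plus strand, 5′ to 3′, no capitals since no motif was found).
Lifr: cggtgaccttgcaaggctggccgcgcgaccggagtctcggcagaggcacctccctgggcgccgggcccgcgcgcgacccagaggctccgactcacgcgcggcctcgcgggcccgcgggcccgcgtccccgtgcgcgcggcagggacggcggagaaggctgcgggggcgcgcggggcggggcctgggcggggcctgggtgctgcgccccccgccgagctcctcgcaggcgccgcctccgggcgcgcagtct

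Il6st, which encodes gp130 itself (chr13:112464070-112510086, plus strand), was steadier as a sum. It had 16.2 and 18.5 FPKM in E18 cells, 28.6 and 23.0 FPKM in P5 cells and 20.4 and 23.2 FPKM in Adult cells. The E18 libraries were the lowest and overlapped with no other age, while P5 and Adult overlapped. No comparison of the sum passed the test, with a log2 change of 0.54 in P5 against E18 (95% interval 0.18 to 0.90, limma adjusted p = 0.0693), -0.23 in Adult against P5 (adjusted p = 0.229) and 0.32 in Adult against E18 (adjusted p = 0.109). TPM gave calls in the P5 comparisons, 0.68 for P5 against E18 (adjusted p = 0.0258) and -0.96 for Adult against P5 (adjusted p = 8.15e-04), and turned Adult against E18 to -0.28; quantile normalization called Adult against E18 (0.46, adjusted p = 0.0369).

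The make-up of Il6st transcripts differed by age where the sum did not pass. Il6st-203, a form of 8678 bases with an upstream start and a longer 3′ end, had 2.57 and 2.77 FPKM in E18 cells, 2.14 and 2.71 FPKM in P5 cells and 9.15 and 11.6 FPKM in Adult cells. It made up 15.8% and 15.0% of the gene in E18 cells, 7.47% and 11.8% in P5 cells and 44.8% and 50.0% in Adult cells. Il6st-201, of 5207 bases and with the same coding span of 2751 bases, had 10.1 and 11.2 FPKM in E18 cells, 17.3 and 14.9 FPKM in P5 cells and 10.2 and 10.5 FPKM in Adult cells. Il6st-203 was thus higher in both Adult libraries than in any other, and Il6st-201 was highest at P5. Il6st-203 exceeded its level at P5 by 1.73 (SE 0.189, limma adjusted p = 0.00144) and at E18 by 1.62 (SE 0.189, limma adjusted p = 0.00159) on the log2 scale in Adult. Il6st-201 was lower in Adult than at P5 (-0.58, SE 0.142, limma adjusted p = 0.0209), a call lost under quantile normalization (-0.38, adjusted p = 0.0649) and without P5 library a (-0.48, 0.0699), Adult replicate 1 (-0.56, 0.0662) or Adult replicate 2 (-0.60, 0.0555). A fragment annotated as Il6st-205, of 322 bases, had 2.71 and 3.64 FPKM in E18 cells, 8.95 and 5.03 FPKM in P5 cells and 0.32 FPKM and a listed 0 in Adult cells, lower than at P5 (-2.75, limma adjusted p = 0.00154) and than at E18 (-1.85, limma adjusted p = 0.0054; -1.69 and 0.0506 without E18 replicate 2). FPKM of so short a form is sensitive to the fragment length assumed, and it adds to the gene sum. The 250 bases before the start of Il6st-203, which is also the RefSeq start, are shown because this is the form that was higher in Adult (RefSeq, GRCm38.p6, chr13:112463820-112464069, plus strand, 5′ to 3′, no capitals since no motif was found).
Il6st: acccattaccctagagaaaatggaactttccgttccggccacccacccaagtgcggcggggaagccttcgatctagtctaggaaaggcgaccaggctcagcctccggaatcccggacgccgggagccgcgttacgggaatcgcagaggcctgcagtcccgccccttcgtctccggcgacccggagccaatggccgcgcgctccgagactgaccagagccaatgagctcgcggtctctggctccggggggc

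**Figure D4:**
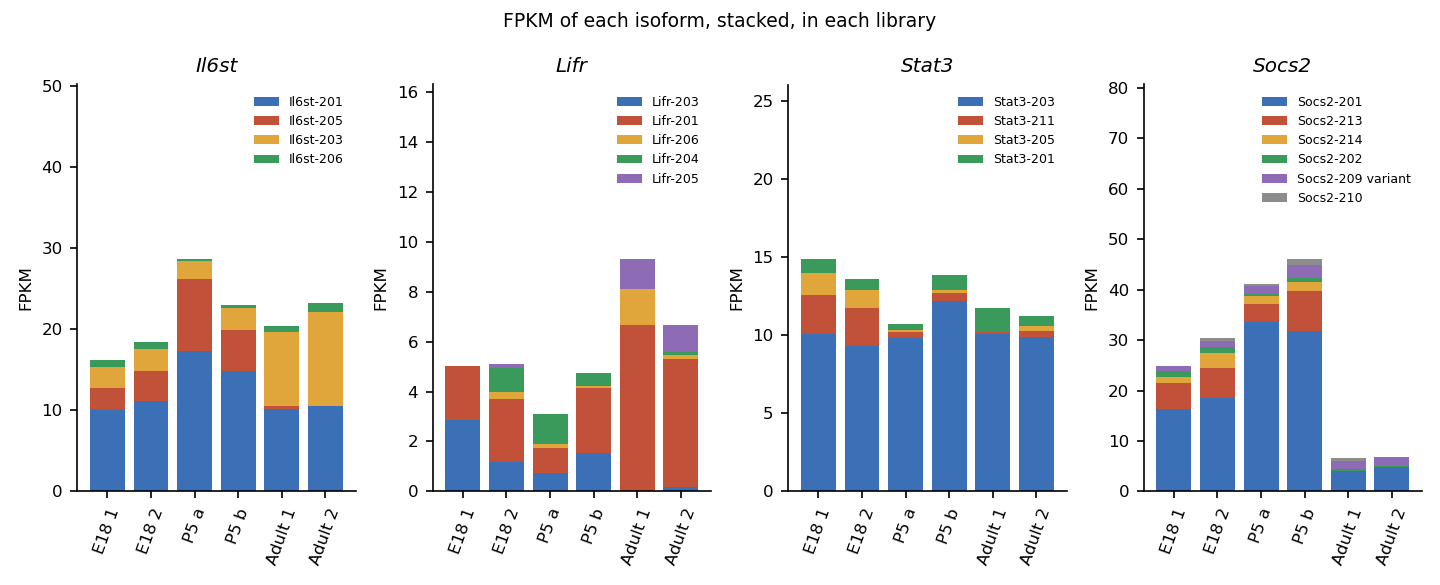
Stacked FPKM of each listed isoform of Il6st, Lifr, Stat3 and Socs2 (vertical axes) in each library, in order of age. Il6st-203 reached 9.15 and 11.6 FPKM in Adult, Lifr-203 was at most 0.16 FPKM there, Stat3-203 stayed between 9.28 and 12.2 FPKM, and Socs2-213 and Socs2-214 were listed at 0 in Adult.

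Of the kinases, Jak1, which is the main Jak of gp130 receptors (chr4:101152367-101265282, minus strand), was highest at P5. It had 35.5 and 39.9 FPKM in E18 cells, 54.2 and 55.3 FPKM in P5 cells and 32.4 and 32.7 FPKM in Adult cells. The ages did not overlap, and the P5 libraries stood above all others. P5 averaged 54.7 ± 0.758 FPKM and E18 37.7 ± 3.11 FPKM (SD, n = 2 each), a log2 change of 0.53 (SE 0.102, limma adjusted p = 0.0307). That call was lost when any 1 of the 6 libraries was left out, with adjusted p between 0.0589 and 0.227 and a change between 0.45 and 0.61. In Adult, Jak1 fell by 0.73 on the log2 scale against P5 (limma adjusted p = 0.00137), called under all 15 settings run, and Adult against E18 gave -0.20 (95% interval -0.45 to 0.043, limma adjusted p = 0.129), with -0.81 and a call under TPM (adjusted p = 4.74e-04) and 0.063 under quantile normalization. Nearly all of it was Jak1-201, which was lower in Adult than at P5 (-0.81, limma adjusted p = 0.00332).

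Jak2, the kinase also used by receptors for growth hormone, erythropoietin and prolactin (chr19:29251828-29313080, plus strand), was listed as 1 isoform. It had 20.6 and 23.4 FPKM in E18 cells, 17.5 and 20.1 FPKM in P5 cells and 15.6 and 16.8 FPKM in Adult cells. Every Adult library lay below every other, and the ages did not overlap. Adult averaged 16.2 ± 0.894 FPKM and E18 22.0 ± 1.96 FPKM (SD, n = 2 each), a log2 change of -0.42 (SE 0.127, limma adjusted p = 0.029). This call was lost without E18 replicate 1 (-0.50, adjusted p = 0.0647), E18 replicate 2 (-0.33, 0.182), Adult replicate 1 (-0.36, 0.117) or Adult replicate 2 (-0.47, 0.0642), and under quantile normalization (-0.29, 0.0727). P5 against E18 gave -0.21 (limma adjusted p = 0.308) and Adult against P5 gave -0.20 (limma adjusted p = 0.213; -0.93 and called under TPM, adjusted p = 6.54e-04).

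Stat3, the transcription factor (chr11:100885098-100939540, minus strand), had 14.9 and 13.6 FPKM in E18 cells, 10.7 and 13.9 FPKM in P5 cells and 11.7 and 11.3 FPKM in Adult cells. The P5 libraries spanned those of Adult and overlapped with E18. The log2 change was -0.21 in P5 against E18 (95% interval -0.57 to 0.16, limma adjusted p = 0.407), -0.081 in Adult against P5 (-0.45 to 0.28, adjusted p = 0.664) and -0.29 in Adult against E18 (-0.65 to 0.076, adjusted p = 0.142). Under TPM, whose median over all genes moved as given above, Stat3 was called lower in Adult than at P5 (-0.80, adjusted p = 0.00561) and than at E18 (-0.89, adjusted p = 0.00367), and relative to the median of all genes these were -0.042 and -0.21. Stat3 shares 72 of 9527 exonic bases with Stat5a on the opposite strand, and strand-specific counting is not stated in the sources used here.

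The full-length form Stat3-203 had 10.1 and 9.28 FPKM in E18 cells, 9.82 and 12.2 FPKM in P5 cells and 10.1 and 9.86 FPKM in Adult cells, and passed the test in no comparison (log2 change 0.16 in P5 against E18, -0.13 in Adult against P5, and 0.035 in Adult against E18, with -0.84 and -0.55 and calls under TPM in the Adult comparisons, adjusted p = 0.00873 and 0.0393). Stat3-211, annotated as a retained intron, had 2.45 and 2.44 FPKM in E18 cells, 0.398 and 0.513 FPKM in P5 cells and 0.134 and 0.439 FPKM in Adult cells. This form was highest in both E18 libraries, lower in Adult than at E18 (-1.43, SE 0.229, limma adjusted p = 0.0047), and P5 against E18 gave -1.24 (limma adjusted p = 0.0627). The mean of the gene sum was highest at E18, while that of Stat3-203 was highest at P5. A second coding form, Stat3-201, had 0.932 and 0.727 FPKM in E18 cells, 0.375 and 1.02 FPKM in P5 cells and 1.53 and 0.653 FPKM in Adult cells, under the minimum for testing. The coding sequences of both forms, 2310 bases in Stat3-203 and 2307 bases in Stat3-201, differ by 3 bases just before the tyrosine that Jaks phosphorylate, at codon 705 of Stat3-203. The stretch is shown from GENCODE M21 transcripts (GRCm38, chr11:100889899-100893106 across 1 intron, minus strand, 5′ to 3′), with the bases found only in Stat3-203 in capitals.
Stat3-203: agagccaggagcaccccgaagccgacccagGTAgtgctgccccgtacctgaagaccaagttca
Stat3-201: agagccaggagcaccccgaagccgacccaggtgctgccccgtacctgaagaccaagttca

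Of the inhibitors, Socs3 (chr11:117966079-117970047, minus strand) showed the widest change from E18 to P5 of the 9. It had 15.6 and 17.3 FPKM in E18 cells, 3.0 and 3.23 FPKM in P5 cells and 4.03 and 3.67 FPKM in Adult cells. Every E18 library stood above every later one, and P5 and Adult did not overlap. P5 averaged 3.11 ± 0.163 FPKM and E18 16.4 ± 1.20 FPKM (SD, n = 2 each), 5.27-fold lower at P5 (log2 change -2.08, 95% interval -2.41 to -1.75, limma adjusted p = 0.00405). Leaving out E18 replicate 1 gave -2.15 with an adjusted p of 0.0553, and leaving out P5 library a gave -2.04 with 0.06. Adult was 4.26-fold lower than E18 (log2 change -1.84, SE 0.135, limma adjusted p = 1.10e-04), called under all 16 settings run. Adult against P5 gave 0.24 (95% interval -0.091 to 0.57, limma adjusted p = 0.176), which turned to -0.38 under TPM. The progenitor and cell cycle list moved the same way from E18 to P5 (median log2 change -0.95); within E18, replicate 1 had the higher sum of that list (153 FPKM, against 31 FPKM in replicate 2) and 15.6 FPKM of Socs3, against 17.3 FPKM in replicate 2. The part of this in the fall of Socs3 was not tested.

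Socs3-201, the coding form, had 14.6 and 15.7 FPKM in E18 cells, 2.10 and 2.93 FPKM in P5 cells and 3.78 and 3.16 FPKM in Adult cells. It was the only one of 19 member isoforms tested that was called in P5 against E18 (-2.21, SE 0.186, limma adjusted p = 0.0187), where 0.824% of all 34941 isoforms tested were lower; none was higher, where 0.804% of all isoforms were, and the call was lost when any 1 library was left out (-2.38 to -2.04, adjusted p between 0.0633 and 0.202). Socs3 was also the only member with a perfect match to TTCNNNGAA, the palindromic core that Stat dimers recognise, among the 7 members with a promoter in the RefSeq table (GRCm38.p6, 250 bases before to 50 after each start; palindromic, so both strands read alike). Of 32851 promoters of this length in the table, 8.3% hold such a match, as do 9.55% of the 27025 genes with a promoter there. The match in Socs3 begins 154 bases before the RefSeq start and is in capitals in the 250 bases before that start (chr11:117969367-117969616, minus strand, 5′ to 3′). The RefSeq start lies 180 bases upstream of the annotated start of Socs3-201. A match is a description of the letters only.
Socs3: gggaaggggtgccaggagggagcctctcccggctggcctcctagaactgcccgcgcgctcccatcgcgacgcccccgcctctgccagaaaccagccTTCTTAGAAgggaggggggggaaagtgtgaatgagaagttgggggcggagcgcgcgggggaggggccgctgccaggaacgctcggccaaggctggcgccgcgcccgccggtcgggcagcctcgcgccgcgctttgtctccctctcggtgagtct

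Socs2, known as a brake on growth hormone signaling (chr10:95385362-95417180, minus strand), had the widest change of the 9 between P5 and Adult. It had 24.9 and 30.5 FPKM in E18 cells, 41.1 and 46.1 FPKM in P5 cells and 6.58 and 6.87 FPKM in Adult cells. The P5 libraries were the highest and the Adult libraries the lowest, and no ages overlapped. P5 averaged 43.6 ± 3.56 FPKM and E18 27.7 ± 3.95 FPKM (SD, n = 2 each), a log2 change of 0.64 (SE 0.136, limma adjusted p = 0.0367), lost when any 1 library was left out (adjusted p between 0.0725 and 0.257, change between 0.50 and 0.78). Adult averaged 6.72 ± 0.206 FPKM (SD, n = 2), 6.48-fold lower than P5 (log2 change -2.53, SE 0.136, limma adjusted p = 5.88e-05) and 4.12-fold lower than E18 (-1.89, SE 0.136, limma adjusted p = 1.02e-04). Both calls held under every setting run. The RGC marker list fell in the same comparison, with 14 of 15 genes lower in Adult than at P5 and a median log2 change of -3.51.

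Most of Socs2 was Socs2-201, with 16.3 and 18.6 FPKM in E18 cells, 33.7 and 31.9 FPKM in P5 cells and 4.14 and 4.88 FPKM in Adult cells. It was lower in Adult than at P5 (-2.62, limma adjusted p = 2.34e-04) and than at E18 (-1.75, adjusted p = 5.33e-04), and P5 against E18 gave 0.87 (adjusted p = 0.0526; 1.02 and 0.0291 under TPM). Socs2-213 had 5.20 and 5.84 FPKM in E18 cells and 3.56 and 7.89 FPKM in P5 cells, and was listed at 0 in both Adult libraries. Socs2-214 had 1.28 and 3.05 FPKM in E18 cells and 1.51 and 1.84 FPKM in P5 cells, and was also listed at 0 in both. These 3 forms carry the same coding span of 594 bases. A variant of Socs2-209, a form that passed no test, had 0.944 and 1.24 FPKM in E18 cells, 1.64 and 2.62 FPKM in P5 cells and 1.56 and 1.63 FPKM in Adult cells, with -0.25 in Adult against P5 (limma adjusted p = 0.416; -0.84 and 0.0459 under TPM).

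Socs7, a Socs protein that binds the adaptor Nck (chr11:97362551-97398542, plus strand), was highest in Adult. It had 18.4 and 19.6 FPKM in E18 cells, 17.3 and 22.6 FPKM in P5 cells and 30.4 and 27.8 FPKM in Adult cells. Adult lay above both other ages, which overlapped. Adult averaged 29.1 ± 1.84 FPKM and P5 19.9 ± 3.81 FPKM (SD, n = 2 each), a log2 change of 0.53 (SE 0.15, limma adjusted p = 0.0218), and Adult against E18 gave 0.59 (SE 0.15, limma adjusted p = 0.0147). TPM ended both calls and turned their sign, to -0.19 and -0.006, while relative to the median of all genes they were 0.56 and 0.67. Against P5 the call was also lost without P5 library a (0.35, adjusted p = 0.0617), Adult replicate 1 (0.47, 0.11) or Adult replicate 2 (0.60, 0.0627), and against E18 without E18 replicate 1 (0.55, 0.0868), E18 replicate 2 (0.63, 0.0619) or Adult replicate 1 (0.53, 0.0844). P5 against E18 gave 0.056 (95% interval -0.31 to 0.42, limma adjusted p = 0.848). The annotated form Socs7-201 had 14.3 and 14.5 FPKM in E18 cells, 10.9 and 16.8 FPKM in P5 cells and 25.4 and 25.8 FPKM in Adult cells. A listed variant of it had 4.06 and 5.04 FPKM in E18 cells, 6.33 and 5.85 FPKM in P5 cells and 4.98 and 2.03 FPKM in Adult cells. As deposited the variant passed no test, with log2 changes of 0.36 in P5 against E18, -0.74 in Adult against P5 and -0.38 in Adult against E18. Those of Socs7-201 were -0.084, 0.87 and 0.79 in the same order.

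Over all 29 listed isoforms of the 9 genes, 19 passed the minimum of 1 FPKM. In Adult against P5, 5 were higher, where 19.2% of all isoforms tested were, and 6 were lower, where 24.1% were. In Adult against E18, 3 were higher, where 17.9% of all isoforms were, and 7 were lower, where 26.8% were. Under TPM the split was 2 higher and 11 lower in Adult against P5, 1 higher and 11 lower in Adult against E18, and 2 higher and 1 lower in P5 against E18.

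Of 80 other genes of the pathway, 55 were listed and 52 tested. Called genes numbered 1 higher and 4 lower in P5 against E18, 16 higher and 14 lower in Adult against P5, and 17 higher and 13 lower in Adult against E18, to be read against the shares of all genes given above. The counts of each list below are to be read against the same shares. Under TPM the split was 5 higher and 2 lower in P5 against E18, 6 higher and 25 lower in Adult against P5, and 8 higher and 25 lower in Adult against E18, and quantile normalization left 0 higher and 2 lower in P5 against E18. Of 9 ligands of gp130 receptors 2 were listed, Cntf and Ctf1. Cntf, the ligand of Cntfr, had 0.871 and 0.758 FPKM in E18 cells, 0.425 and 0.841 FPKM in P5 cells and 2.54 and 2.32 FPKM in Adult cells, higher in Adult than at P5 (log2 change 1.08, limma adjusted p = 0.00487) and than at E18 (0.92, limma adjusted p = 0.00912; 0.65 and 0.0758 under TPM, 0.87 and 0.0502 without E18 replicate 2). Müller glia and astrocyte markers were highest in the same Adult libraries, and their part in this was not tested.

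Among 8 other cytokine and hormone receptor chains tested, none was called in P5 against E18, and in Adult against P5 the only gene higher was Ghr while 5 were lower. Of all genes, 26.2% were higher and 33.7% lower in Adult against P5. Ghr, the growth hormone receptor, had 3.85 and 2.86 FPKM in Adult, against 1.07 and 0.535 FPKM at P5 (log2 change 1.28, limma adjusted p = 0.00385). Ifngr2, a chain of the interferon-gamma receptor, had 8.69 and 10.8 FPKM in Adult, against 48.2 and 45.5 FPKM at P5 (-2.16, limma adjusted p = 7.70e-05). Ifnar1, a chain of the type I interferon receptor, was also lower (-0.71, limma adjusted p = 0.00384), and Il4ra, the interleukin-4 receptor chain, by -0.68 (limma adjusted p = 0.00746). Both Adult libraries lay below both P5 libraries for these 3 genes.

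Of 6 other Jak and Stat genes tested, none was called in P5 against E18. Stat5b, which mediates growth hormone signals, was higher in Adult than at P5 by 0.92 (limma adjusted p = 0.00174). Stat5b had 16.3 and 18.2 FPKM in Adult, against 8.23 and 8.95 FPKM at P5. TPM ended this call (0.23, adjusted p = 0.157). Stat5a and Stat6 were higher in Adult than at E18, by 1.02 and 1.33 (limma adjusted p = 0.00453 and 0.00801; for Stat6 1.26 and 0.0508 without E18 replicate 1, 1.19 and 0.0504 without Adult replicate 2). As deposited, none of the 6 passed the test as lower in any of the 3 comparisons. Of all genes, 4.95% were lower in P5 against E18, 33.7% in Adult against P5 and 34.4% in Adult against E18.

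Of the 3 other Socs genes tested, Socs5 and Socs6 moved apart. Socs5, an inhibitor known from interleukin-4 and EGF receptor signaling, had 6.60 and 7.81 FPKM in E18 cells, 13.7 and 11.6 FPKM in P5 cells and 17.2 and 21.1 FPKM in Adult cells. It was higher in P5 against E18 (0.73, limma adjusted p = 0.0388), in Adult against P5 (0.56, adjusted p = 0.0233) and in Adult against E18 (1.29, adjusted p = 7.72e-04). The call against E18 at P5 was lost when any 1 library was left out (0.63 to 0.84, adjusted p between 0.066 and 0.267), under quantile normalization (0.72, adjusted p = 0.0526) and without a variance trend (adjusted p = 0.0521). The call against P5 in Adult turned to -0.16 under TPM and was lost without P5 library b (0.45, adjusted p = 0.103) or Adult replicate 2 (0.42, adjusted p = 0.126). Socs6 had 15.4 and 15.3 FPKM in E18 cells, 12.5 and 13.6 FPKM in P5 cells and 7.01 and 7.67 FPKM in Adult cells, lower in Adult than at P5 (-0.75, limma adjusted p = 0.00224) and than at E18 (-0.97, adjusted p = 7.47e-04). Socs4 passed no test, with 0.23 in Adult against P5 (limma adjusted p = 0.232), which turned to -0.40 under TPM.

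Of 19 other negative regulators and adaptors tested, 1 was lower in P5 against E18, Gab1, a docking protein downstream of gp130 (1.63 and 2.65 FPKM at P5, against 4.90 and 4.56 FPKM at E18; log2 change -0.89, limma adjusted p = 0.0452). The Gab1 call was lost when any 1 library was left out (-1.12 to -0.65), under TPM (limma adjusted p = 0.0549) and under quantile normalization (-0.82, adjusted p = 0.0661). No filter on low values (adjusted p = 0.0518) and annotated isoforms only (-0.65, adjusted p = 0.14) also ended it, and it held in 4 of 15 settings. In Adult against P5, 6 were higher and 6 lower, where 26.2% of all genes were higher and 33.7% lower. Ptprt, a receptor phosphatase for which Stat3 is a known substrate, had 15.0 and 16.3 FPKM in Adult, against 3.17 and 3.67 FPKM at P5 (1.92, limma adjusted p = 1.21e-04), and Pias1, an inhibitor of Stat proteins, was higher by 1.08 (limma adjusted p = 0.00309; 0.39 and 0.144 under TPM). Lower in Adult were Ptpn1, a phosphatase that acts on Jak2 (-1.39, limma adjusted p = 5.21e-04), the adaptor Grb2 (-1.45, adjusted p = 1.45e-04), and Elob and Eloc, the elongins that join Socs boxes to a ubiquitin ligase (-0.71 and -1.08, adjusted p = 0.00135 and 4.93e-04).

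In P5 against E18, where 4.95% of all genes were lower and 5.52% higher, 3 of 16 known Stat3 response genes tested were lower and none higher. They were Vegfa, an angiogenic growth factor, at 18.4 and 18.5 FPKM at P5 against 62.4 and 73.1 FPKM at E18 (-1.82, limma adjusted p = 0.00453), the AP-1 gene Junb (-1.13, adjusted p = 0.01) and Myc (-0.65, adjusted p = 0.041). The call for Vegfa was lost without P5 library a (-1.81, adjusted p = 0.0665), that for Junb without the same library (-1.0, 0.0665), E18 replicate 1 (-1.09, 0.113) or E18 replicate 2 (-1.17, 0.0722), and that for Myc without any 1 of the libraries (-0.72 to -0.58, adjusted p between 0.0657 and 0.245). The call for Myc was also lost under TPM (-0.56, adjusted p = 0.0666), under quantile normalization (-0.61, 0.0583) and with a pseudocount of 0.1 FPKM (-0.72, 0.0721). The list's median log2 change was -0.35, beside -0.032 over all genes, and 14 of 16 changes were below 0. In Adult against P5, 5 were higher and 3 lower, where 26.2% of all genes were higher and 33.7% lower. Vegfa was at 57.9 and 68.0 FPKM in Adult (1.71, limma adjusted p = 1.44e-04) and Junb was higher by 1.68 (adjusted p = 1.48e-04). Myc was at 0.343 and 0.276 FPKM in Adult, against 6.55 and 6.89 FPKM at P5 (-2.56, limma adjusted p = 6.70e-05), and the kinase gene Pim1 was lower by -1.22 (adjusted p = 0.00417). Vegfa, Junb and Socs3 were thus all lower at P5 than at E18, and in Adult against P5 Vegfa and Junb rose where Socs3 did not pass the test, a difference between genes that was not tested.

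**Figure D5:**
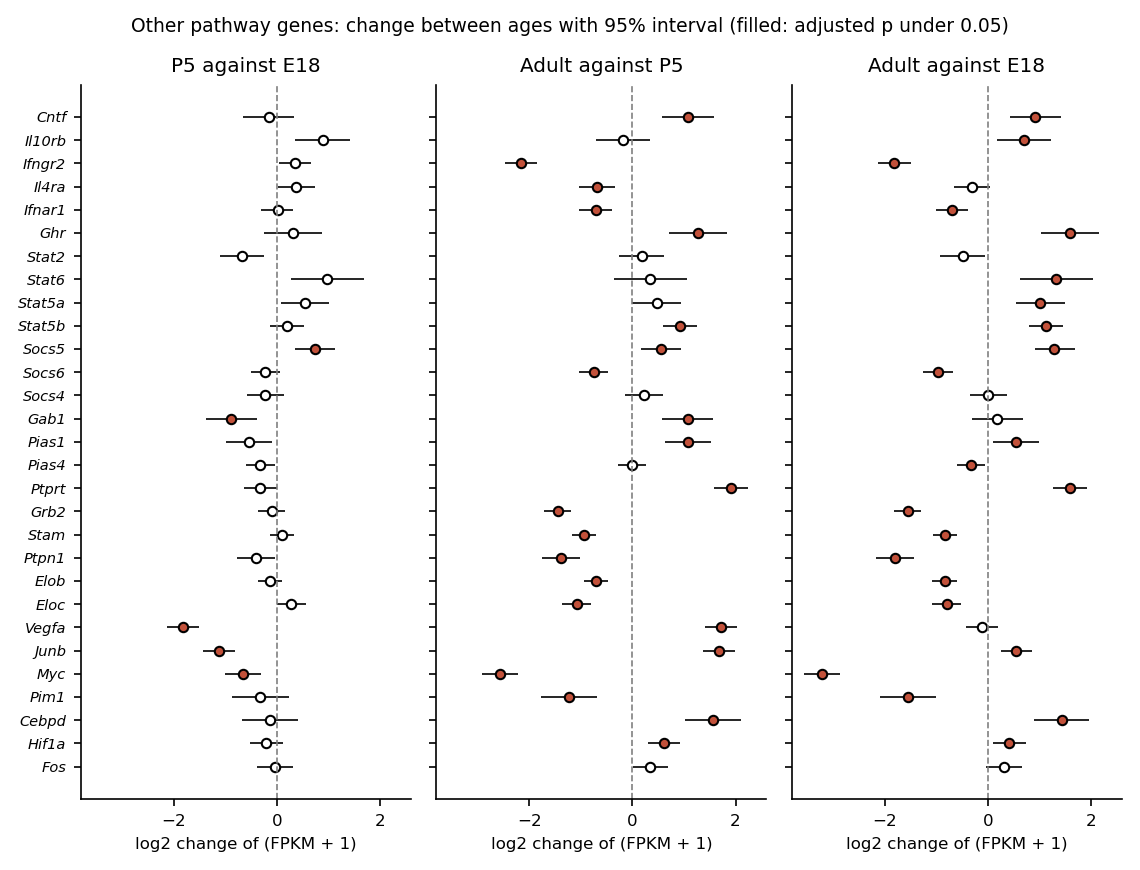
Log2 change of (FPKM + 1), later minus earlier age, with its 95% interval for 29 named genes of the pathway lists in the 3 comparisons; filled points have an adjusted p under 0.05 (limma). Few points are filled in P5 against E18, with Vegfa at -1.82 and Socs5 at 0.73 (lost when any 1 library was left out), while Myc at -2.56 and Ptprt at 1.92 mark the range in Adult against P5.

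As a description of which genes were patterned most like each member over the 6 libraries, Pearson correlations of log2(FPKM + 1) were taken with about 5296 genes whose age means spanned at least 1 on the log2 scale. With libraries in 3 pairs, high values are common, and no p is given. For Socs3 the most alike gene was Fzd8 (r = 0.9966), followed by Zfp868, Vasn, Abtb2 and Cdkn1c, and 27 genes exceeded an r of 0.95. Cdkn1c, a cell cycle inhibitor, had 43.2 and 42.5 FPKM in E18 cells, 4.79 and 5.81 FPKM in P5 cells and 4.74 and 4.41 FPKM in Adult cells. For Cntfr they were Igf1r (r = 0.9956), Zfp219, Irs2, Cited2 and RP24-95N16.4, with 65 genes over 0.95. For Socs2, 967 genes exceeded 0.95, led by Ggps1 (r = 0.9991), Pcgf3, Psmd13, Npcd and Cacng5, so its pattern was a common one in these libraries. The age means of Stat3 spanned 0.29, under the minimum of 1 set for the genes compared, against 2.53 for Socs2, so the counts of alike genes are not on a like footing. For Stat3 none exceeded 0.95, and the most alike were RP24-227L14.1 (r = 0.9338), Ncapd2, RP24-548J11.1 and Ecel1. Between RP24-227L14.1 and Ncapd2 stood another gene, listed by a clone name only. Jak1 was followed by Osbpl10 (r = 0.9956), Rbm11, Zwint, Sstr4 and RP23-204N19.8, and Jak2 by Ccng2 (r = 0.9762), Ssbp3, Zfp710, RP23-24C14.1 and Kctd10. Zwint, a kinetochore protein gene, had 320.1 and 381 FPKM in E18 cells, 707 and 668 FPKM in P5 cells and 286 and 300.2 FPKM in Adult cells. For Il6st the genes were RP24-220A15.1 (r = 0.9853), RP23-230I5.2, Cryl1, Actr3b and Serpinb9, and for Lifr Rfx1 (r = 0.9910), RP23-258L8.1, Wapl, Pias1 and Peli3. For Socs7 they were Dedd2 (r = 0.9898), Zfp839, Adgrb1 and RP23-20N14.2, and between Zfp839 and Adgrb1 stood another gene, listed by a clone name only.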

How the data were processed

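The authors' deposited table gives FPKM per isoform for 50829 isoforms, with columns named for the E18 and Adult samples and 1 shared header for both P5 columns. Per the labels' protocols, libraries were polyA-selected and sequenced as paired reads of 100 bases; per the submitters' processing notes, HISAT2, Cufflinks, Cuffdiff and mm10 were used, with versions not given in the sources used here. Every listed isoform reaches about 1 FPKM in some column, and 0.0001 stands in place of 0; such values are called listed at 0. FPKM hold no counts, so depth is unknown, and 2 libraries per age limit the precision. A further 9 columns of per-sample values were not used.

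Isoform FPKM were summed per symbol. Genes with a mean of at least 1 FPKM were fitted with limma 3.58.1 in R 4.3.3 (log2(FPKM + 1), trended variance, all 6 libraries in 1 fit, 3 residual degrees of freedom), two-sided, with Benjamini-Hochberg adjustment over all genes of a comparison; isoforms were fitted likewise. The procedure was tested on simulated data. Members, lists and markers were chosen with earlier results of these data known. Named were all 9 members, their isoforms with at least 20% of the gene in any library, per pathway list the 3 smallest p-values per comparison and the 2 highest means, and the 5 most alike genes per member, without 2 clone names; a few isoforms under that share, Ctf1 and the marker C1qa are named beside them, and 1 pathway gene is not reported here. Coordinates are from GENCODE M21 (GRCm38). Alternatives were another pseudocount, no filter, TPM, quantile normalization, equal medians, no variance trend, the 4 libraries compared, annotated isoforms only, a replicate block and leaving out each library.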

Additional observations from a re-analysis of the deposited data

How the results depend on the processing

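Each library left out in turn gave 0 to 2 members called in P5 against E18, 3 to 5 in Adult against P5 and 2 to 5 in Adult against E18; a pathway gene count of 0 to 2 in P5 against E18; and 0 member isoforms called in P5 against E18 and 5 to 10 in Adult against P5. P5 against E18 was the least stable comparison: 2 members were called without a variance trend and 1 with only the 4 libraries compared, 2 pathway genes under quantile normalization and 2 with only those 4 libraries, and 3 member isoforms under TPM and 0 with only those 4 libraries. The cause was not tested beyond the fewer libraries of those fits, in which a lone library is assumed to vary like the other ages. In Adult against P5, TPM turned Socs3 to -0.38 and Socs7 to -0.19, which relative to the median of all genes were 0.38 and 0.56. In Adult against E18, TPM turned Socs7 to -0.006, Il6st to -0.28 and Cntfr to -0.19, and quantile normalization turned Jak1 to 0.063. Relative to the median of all genes, these TPM changes were 0.67 for Socs7, 0.40 for Il6st and 0.49 for Cntfr. Socs7 in P5 against E18 ran from -0.13 to 0.24 over the libraries left out and was -0.084 with annotated isoforms only, and Stat3 in Adult against P5 ran from -0.26 to 0.094. Stat3-203 was 0.036 under quantile normalization and -0.27 to 0.019 over the libraries left out in Adult against P5, and -0.55 under TPM and -0.022 to 0.093 over the libraries left out in Adult against E18. In Adult against P5, TPM also turned Socs5 to -0.16 and Socs4 to -0.40. The falls of Socs2 in Adult against both ages, of Socs3 in Adult against E18 and of Jak1 in Adult against P5, and the rise of Cntfr in Adult against P5, were called under every setting run.

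The labels number the replicates of all 3 ages, but only E18 and Adult columns can be tied to those numbers. Their same-numbered deviations correlated at r = 0.02 across 14390 genes. With 2 libraries per age, this cannot tell whether same-numbered libraries shared a batch or preparation, and the labels tie them by number only. With a replicate block in Adult against E18, 4 members, 29 pathway genes and 9 member isoforms were called, and the adjusted p of Lifr-203 was 0.0539. For the comparisons with P5, no paired analysis was possible because both its columns carry the same header. With no counts, the depth behind low values such as Cntf cannot be given.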
